A study of Homo sapiens with 4 samples.

Results

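The 33 genes described here encode lysosomal hydrolases, lysosomal membrane proteins and the transcription factors TFEB and TFE3, and they were picked by name from the 23217 gene symbols in a table of transcripts from breast cancer cells depleted of the spliceosomal protein SNRNP40. All 33 were present. They comprised 12 proteases, 10 glycosidases, 3 sulfatases, 1 thioesterase, 5 membrane proteins and 2 transcription factors, and together they held 61 of the 44578 listed transcripts. For each gene the FPKM of all its transcripts was summed. FPKM counts sequenced fragments scaled to transcript length and to the number of mapped fragments, so levels can be compared between genes.

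The cells were LV-M100, a single clone of the human breast cancer line MDA-MB-231 with low cell-to-cell variability. They were transfected with siRNA, and total RNA was collected after 48 h and sequenced after removal of ribosomal RNA. Control cells (siControl) received NC1 in replicate 1 and the BLOCK-iT Fluorescent Oligo in replicate 2, and depleted cells (siSNRNP40) received siSNRNP40 #1 in replicate 1 and siSNRNP40 #2 in replicate 2, so all 4 libraries came from transfected cells. The table holds 1 pooled value for each condition. No value therefore has a replicate error, no test between the conditions was possible, the depth is unknown, and each difference below compares pooled libraries only. Differences are given as the log2 ratio of siSNRNP40 to siControl without a pseudocount, so a positive value is higher after depletion.

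SNRNP40 itself had an FPKM of 40.4 with siControl and 6.12 with siSNRNP40, a log2 ratio of -2.72. The mesenchymal genes VIM (FPKM 750.1 and 733.0), CD44 (115.9 and 141.3) and AXL (124.7 and 114.8) were abundant, as this line is known for. FN1 was lower (34.6 and 21.6, log2 ratio -0.68), and SPARC was near 0 in both conditions. Of 6 epithelial and luminal genes, 4 passed a mean FPKM of 1. The keratins KRT18 (157.6 and 130.6) and KRT8 (136.1 and 118.5) were as abundant as CD44 and AXL, and EPCAM had 10.6 and 10.0. CDH1 and ESR1 were near 0, so these markers alone do not set a mesenchymal identity apart. The leukocyte gene PTPRC was listed at 0 in both, and 3 of 6 leukocyte and macrophage genes passed a mean FPKM of 1, among them CD68 (40.9 and 44.4), itself a lysosomal membrane protein.

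Lysosomes are acidic compartments in which proteins, glycans, lipids and glycogen are taken apart by hydrolases that work at low pH. Most of the soluble enzymes are tagged with mannose 6-phosphate in the Golgi and carried to the lysosome by receptors, and loss of a single one can cause a storage disease. Heavily glycosylated membrane proteins such as LAMP1 and LAMP2 line the inner face of the lysosome, and cancer cells can also secrete cathepsins, which then cut matrix outside the cell.

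Most of the lysosomal genes had a log2 ratio within 0.25 of 0 on SNRNP40 depletion. Of the 33, 31 had a mean FPKM of 1 or more over both conditions, and CTSK and IDUA were below it. None of the 31 passed an absolute log2 ratio of 1, the size the study used to call a transcript SNRNP40-dependent, and 181 of all 12334 genes above the same minimum (1.47%) did. Only CTSS, a protease, passed a smaller limit of 0.5, which is 1 of 31 genes (3.23%) against 10.3% of all genes. The log2 ratios of the 31 genes ran from -0.38 for FUCA1 to 0.90 for CTSS, and 22 of them lay within 0.25 of 0 (71.0% against 66.3% of all genes). There were 19 genes on the higher side and 12 on the lower, with a median of 0.081 against 0.0034 for all genes. In bulk RNA, fewer cells expressing a gene and less of its RNA per cell cannot be told apart. The median size of the change, regardless of direction, was 0.220 for the 31 genes and 0.170 for all genes. By level, the limit of 0.5 was passed by 0 of 7 of the genes with a mean FPKM from 1 to 5 (20.4% of all genes at that level), by 1 of 8 from 5 to 20 (7.23%) and by 0 of 16 at 20 or more (4.32%).

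**Figure D1:**
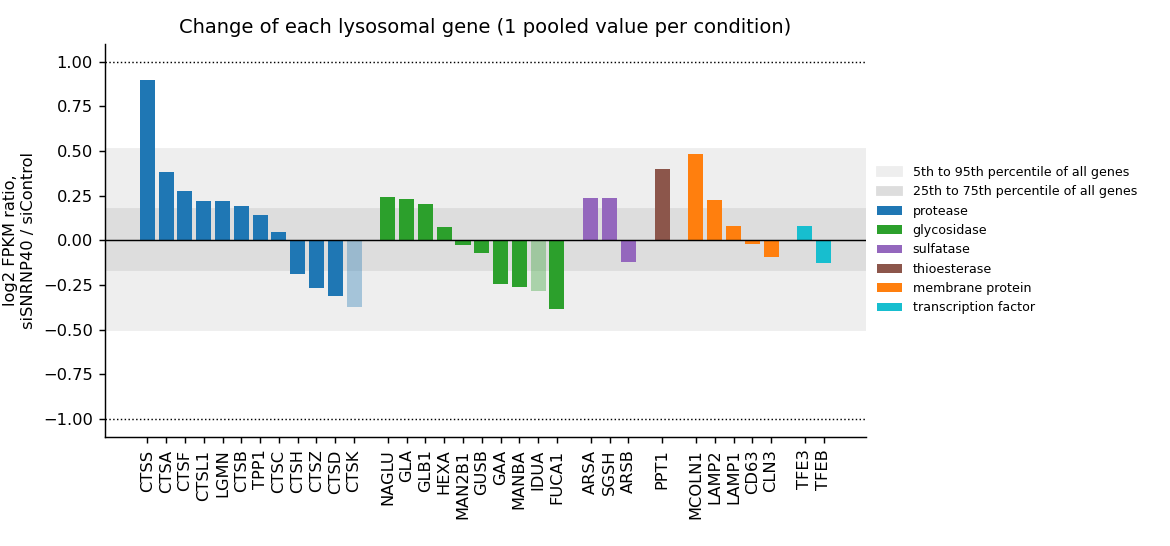
Log2 ratio of FPKM (siSNRNP40 over siControl, vertical axis) for each of the 33 genes, coloured by function and ordered by value within each function, from 1 pooled value per condition and without error bars. Pale bars are CTSK and IDUA, with a mean FPKM under 1, the grey bands hold the middle of the distribution of all genes, and the dotted lines mark -1 and 1. CTSS at 0.90 is the bar that leaves the outer band.

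The levels spanned a wide range, and their order was nearly the same in both conditions. The mean FPKM ran from 0.464 for IDUA to 233.8 for CD63, with a median of 17.5 over the 33 genes and 10.7 over all genes above the minimum. CD63, CTSZ, CTSL1, CTSD and LAMP2 each had a mean FPKM above 100, while SGSH, TFEB, GAA, MCOLN1 and TPP1 lay between 1.30 and 2.28. When the 33 genes were ranked by level in each condition, 13 kept their rank and 28 moved by at most 1 place. The largest move was that of CTSS, from rank 22 with siControl to rank 18 with siSNRNP40. CTSZ was above CTSL1 with siControl (168.7 and 140.3) and below it with siSNRNP40 (140.4 and 163.4). Whether neighbours in this order differ beyond replicate spread cannot be said from pooled values.

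**Figure D2:**
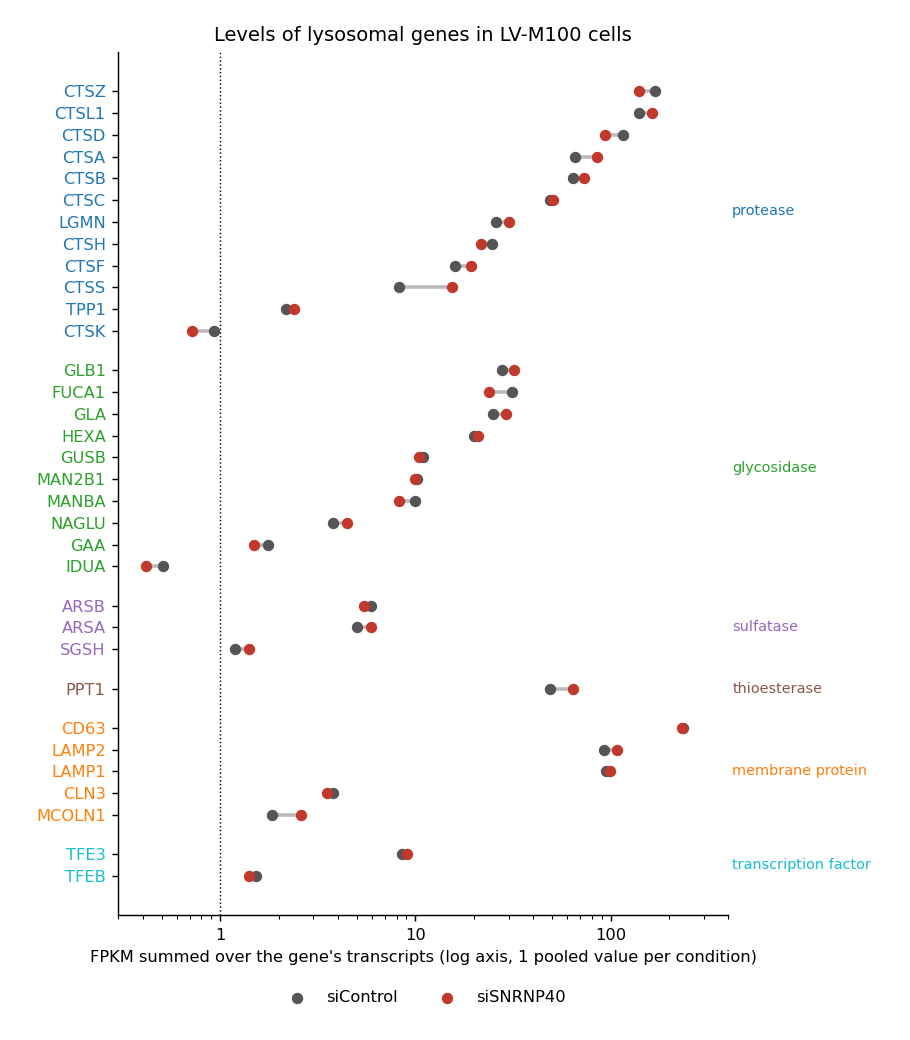
FPKM summed over the transcripts of each gene (horizontal log axis) with siControl (grey) and siSNRNP40 (red), joined by a line, for the 33 genes grouped by function. The dotted line is the minimum of 1, and each point is 1 pooled value without an error bar. The pairs of points lie close together over the whole range from IDUA to CD63, and the longest line is that of CTSS.

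TFEB and TFE3 are basic helix-loop-helix leucine zipper factors that switch on lysosomal genes when nutrient signalling through mTORC1 is low, and they bind an E-box known as the CLEAR element. TFE3 had an FPKM of 8.58 with siControl and 9.07 with siSNRNP40 (log2 ratio 0.081), and TFEB had 1.52 and 1.40 (-0.13). As gene sums, both regulators thus stayed within 0.25 of 0 at the RNA level. With the most expressed transcript in place of the sum, TFEB had -0.395 and TFE3 stayed at 0.081. The values say nothing about where in the cell their proteins were. Their relative MITF had 2.29 and 2.73 (0.25), and TFEC was nearly absent.

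Because TFEB and TFE3 act through the CLEAR element, the promoters of the lysosomal genes were searched for it, and some of the stretches that hold it are printed here. RefSeq promoter windows on GRCh38.p14, from 250 bases before the start site to 50 bases after it, were found for 23 of the 33 genes, and ARSA, CTSB, CTSK, CTSS, HEXA, LAMP2, LGMN, MANBA, NAGLU and SGSH had no entry. Each motif reads the same on both strands, and each longer one contains the shorter ones. The full palindrome of 10 bases, which is TCACGTGA with a G before it and a C after it, was present in at least 1 window for 2 of the 23 genes (GAA and MCOLN1), against 0.42% of all 27167 genes with a window. Its 8-base centre TCACGTGA was present for 5 of 23 genes, namely CLN3, CTSA, GAA, LAMP1 and MCOLN1, against 1.17% of all genes. The core CACGTG was present for 9 of 23 genes, against 8.74% of all genes. Some genes have more than 1 window, and by window the centre was in 6 of the 35 of the lysosomal genes and in 0.979% of all 34943. In the following stretches, read 5′ to 3′ along the gene, capitals mark the 8-base centre.
MCOLN1, chr19:7522598-7522627, plus strand: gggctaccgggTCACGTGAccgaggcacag
GAA, chr17:80101493-80101522, plus strand: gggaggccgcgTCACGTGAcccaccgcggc
GAA, chr17:80101538-80101567, plus strand: gctcccgccggTCACGTGAcccgcctctgc
CTSA, chr20:45891298-45891327, plus strand: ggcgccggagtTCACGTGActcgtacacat
LAMP1, chr13:113297199-113297228, plus strand: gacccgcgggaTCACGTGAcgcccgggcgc
CLN3, chr16:28492058-28492087, minus strand: cgcgggtgctgTCACGTGAtccgacaaacg

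The first 3 stretches hold the full palindrome and the other 3 hold the centre alone. In MCOLN1 and CTSA the centre begins 15 and 26 bases before the start site. Of the 5 genes with the centre, MCOLN1 (log2 ratio 0.48), CTSA (0.38) and LAMP1 (0.081) were on the higher side, and CLN3 (-0.095) and GAA (-0.24) on the lower. With the most expressed transcript in place of the sum, CLN3 had 0.39 and GAA 1.46. That transcript was picked by its level over both conditions, so one that is high with siSNRNP40 can select itself. With siControl alone, another transcript was the most abundant for both genes. For CLN3 it had an FPKM of 2.09 with siControl and 1.33 with siSNRNP40 (-0.65). For GAA its share of the gene went from 44.9% to 0.0127%. Both picked transcripts had too few alignments for the authors' software to test, and no direction is read from them. A match describes the letters in the window and is not evidence of binding.

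Among the proteases, 8 of the 11 above the minimum were on the higher side and 3 on the lower, with a median log2 ratio of 0.19. The summed FPKM of all 12 was 682.0 with siControl and 695.9 with siSNRNP40 (0.029), because changes of the abundant members went in both directions. CTSL1, the gene of cathepsin L, a cysteine protease that can cut nearly any protein, had an FPKM of 140.3 with siControl and 163.4 with siSNRNP40 (0.22). CTSZ, the carboxypeptidase cathepsin Z, had 168.7 and 140.4 (-0.27). CTSD, the main aspartic protease of the lysosome, had 116.5 and 93.7 (-0.31). The difference from siControl was -16.8% for cathepsin Z, -19.6% for cathepsin D and 16.5% for cathepsin L. CTSA, a serine carboxypeptidase that also shields beta-galactosidase and neuraminidase from breakdown, had 65.4 and 85.3 (0.38), and CTSB, a cysteine protease often secreted by tumour cells, had 64.3 and 73.3 (0.19). The 5 proteases with the highest levels, CTSZ, CTSL1, CTSD, CTSA and CTSB, summed to 555.2 and 556.1, a change of 0.159%.

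CTSS encodes cathepsin S, a cysteine protease that stays active at neutral pH and trims the invariant chain of MHC class II in antigen-presenting cells. Its FPKM was 8.26 with siControl and 15.4 with siSNRNP40, 1.86-fold higher. It was the only one of the 31 genes above the limit of 0.5, where 5.24% of all genes lay above it. Of the 4507 genes with a mean FPKM from 5 to 20, 31 (0.688%, CTSS included) had a log2 ratio at least as high. The gene lies on the minus strand of chromosome 1 from 150702555 to 150738433 (GRCh37, the coordinates of hg19, GENCODE release 44), has 8 exons in its canonical transcript and overlaps no other annotated coding gene. Both of its listed transcripts carry the mark of the authors' software for too few alignments to test, as do 4.97% of all transcripts with a mean FPKM of 1 or more.

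Cathepsin S is also known as a product of interferon-stimulated cells, and genes of the interferon response were higher in the same libraries. Of 10 such genes 9 were on the higher side, and 5 of the 10 were above 0.5. Their summed FPKM was 510.0 with siControl and 788.2 with siSNRNP40, and the highest log2 ratio was 0.91 for IFIH1. The part of this in the level of CTSS was not tested. Of the 6 leukocyte and macrophage genes, 3 passed the minimum, of which LYZ, the lysozyme, had 8.46 and 10.2 (0.28), CD68 had a log2 ratio of 0.12, and CSF1R, a receptor of macrophages, had 1.98 and 0.907 (-1.13). All 6 summed to 51.9 and 55.7, and the defining leukocyte gene PTPRC was at 0 in both conditions. The part of these genes in the level of CTSS was not tested. CTSK, the collagen-cutting cathepsin of osteoclasts and the neighbour of CTSS on the chromosome, had an FPKM of 0.926 and 0.714.

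The remaining proteases above the minimum had log2 ratios from -0.19 to 0.27. CTSC, which activates serine proteases of immune cells by removing dipeptides, had an FPKM of 49.0 with siControl and 50.5 with siSNRNP40 (0.044). LGMN, the asparagine-specific protease legumain that processes several cathepsins, had 25.9 and 30.1 (0.22). CTSH, an aminopeptidase, had 24.7 and 21.6 (-0.19), and CTSF had 15.9 and 19.2 (0.27). TPP1, a tripeptidyl peptidase lost in a childhood neuronal ceroid lipofuscinosis, had 2.16 and 2.39 (0.14). Summed over the 8 cysteine cathepsins the FPKM was 472.0 and 484.5, higher by 2.65%.

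Glycosidases remove sugars from glycoproteins, glycolipids, glycosaminoglycans and glycogen. Of the 10 genes, 9 were above the minimum, 4 of these were on the higher side and 5 on the lower, and none passed 0.5. Their summed FPKM was 141.0 with siControl and 141.3 with siSNRNP40. FUCA1, the lysosomal fucosidase, had the lowest log2 ratio of the 31 genes, with an FPKM of 31.2 and 24.0 (-0.38). MANBA, the beta-mannosidase that acts at the end of N-glycan breakdown, had 9.93 and 8.27 (-0.26), and MAN2B1, the alpha-mannosidase of the same route, had 10.2 and 9.96 (-0.029). FUCA1, MANBA and MAN2B1, which were not a group fixed beforehand, summed to 51.3 and 42.2, a difference of -17.8%. FUCA1 was the most abundant of them and held most of it, with -7.29 FPKM against -1.66 for MANBA and -0.20 for MAN2B1.

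GLB1, GLA and HEXA, 3 of the glycosidases that can act on glycolipids, were on the higher side. GLB1, the beta-galactosidase, had an FPKM of 27.9 with siControl and 32.1 with siSNRNP40 (0.20). GLA, the alpha-galactosidase lost in Fabry disease, had 24.9 and 29.2 (0.23), and HEXA, the hexosaminidase subunit lost in Tay-Sachs disease, had 19.99 and 21.0 (0.074). GLB1 and CTSA form a complex with the neuraminidase NEU1, whose FPKM was 67.0 and 69.5 (0.053), so the 3 partners were each on the higher side by different amounts.

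Glycosaminoglycans are taken apart in turn by sulfatases and glycosidases. GUSB, the beta-glucuronidase, had an FPKM of 10.9 and 10.4 (-0.072), NAGLU had 3.78 and 4.47 (0.24), and SGSH, the sulfamidase that acts with NAGLU on heparan sulfate, had 1.19 and 1.40 (0.23). ARSB, which removes sulfate from dermatan and chondroitin sulfate, had 5.91 and 5.44 (-0.12), and IDUA, the iduronidase, was the lowest of all with 0.509 and 0.418. These 5 genes summed to 22.3 and 22.1. Reads of GUSB may be shared with its pseudogene copies, of which GUSBP1 (FPKM 15.7 and 18.7) and GUSBP4 (10.6 and 11.1) were near the level of GUSB or above it. ARSA, the sulfatase of the myelin lipid sulfatide, had 5.04 and 5.95 (0.24). GAA, the glucosidase that breaks down glycogen, had 1.75 and 1.48 (-0.24).

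PPT1, a thioesterase that strips fatty acids from proteins and is lost in infantile neuronal ceroid lipofuscinosis, had an FPKM of 48.9 with siControl and 64.4 with siSNRNP40, higher by 31.6% (0.40). MCOLN1, PPT1 and CTSA, genes of 3 different functions, came next after CTSS on the higher side, and all 3 lay within the 5th to 95th percentile of all genes (-0.50 to 0.51).

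Among the membrane proteins, CD63, a tetraspanin of late endosomes and exosomes, was the most abundant of the 33 genes, with an FPKM of 235.4 with siControl and 232.3 with siSNRNP40 (-0.019). LAMP1 had 94.2 and 99.7 (0.081), and LAMP2, which also serves chaperone-mediated autophagy, had 92.9 and 108.5 (0.22). MCOLN1, a calcium channel of the lysosomal membrane, had 1.85 and 2.58 (0.48), the highest value of the 5 genes and also the one at the lowest level. MCOLN1 overlaps PNPLA6 on the same strand in the annotation, and PNPLA6 had an FPKM of 6.99 and 6.46 (-0.11). CLN3, a multipass protein lost in juvenile neuronal ceroid lipofuscinosis, had 3.77 and 3.53 (-0.095).

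The sums above can hide changes between the transcripts of a gene. There were 17 genes with a single listed transcript and 16 with more. Of the 42 member transcripts with a mean FPKM of 1 or more and a value above 0 in both conditions, 3 (7.14%) passed an absolute log2 ratio of 1, against 10.5% of all 16691 such transcripts. Counting transcripts of genes with more than 1 listed transcript alone, it was 3 of 27 (11.1%) against 16.9%. The 3 belong to LAMP2, LGMN and GAA. Fragments that fit several transcripts of a gene are divided among them by a statistical model, and the table gives transcripts under assembly numbers without a RefSeq name, so which known splice form each one is was not determined.

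LAMP2, on the minus strand of the X chromosome from 119560003 to 119603220, has 3 listed transcripts. The least abundant with siControl, transcript 1, had an FPKM of 2.33 with siControl and 11.4 with siSNRNP40 (log2 ratio 2.29), and its share of the gene went from 2.51% to 10.5%. Transcript 2 had 19.0 and 17.7 (-0.10), and transcript 3, the main one, had 71.6 and 79.5 (0.15). The minor transcript alone thus held more of the difference in the sum of LAMP2 than the main one did.

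LGMN has a main transcript with an FPKM of 22.3 and 28.8 (0.37) and a minor one with 3.53 and 1.25 (-1.499), whose share went from 13.7% to 4.16%. For GAA the 3 transcripts had 0.426, 0.539 and 0.788 with siControl, and transcript 2 held 99.99% of the gene with siSNRNP40 at 1.48 (1.46). All values of GAA are low, and all 3 transcripts carry the mark for too few alignments. The minor transcript of CD63 was listed at 10.6 with siControl and at 0 with siSNRNP40, which is 4.51% of the gene. MAN2B1 showed a similar pattern, with a minor transcript at 1.54 and 0.0226, and both of its transcripts carry the mark for too few alignments. In all, 5 transcripts of the lysosomal genes described here were listed at 0 in exactly 1 condition, 4 of them with siSNRNP40. Apart from that of CD63, these transcripts were low in the other condition too. With siControl the FPKM was 0.70 for CTSB, 0.426 for GAA and 0.187 for CTSC, and with siSNRNP40 it was 0.479 for CTSS. The same count over all transcripts was not computed, so no direction is read from it.

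Over the 16 genes with more than 1 transcript, a median of 5.04% of the gene moved between transcripts. It was over 10% for GAA (69.2%), CLN3 (17.7%), MAN2B1 (14.9%) and TFEB (14.2%). For CTSA, CTSL1 and CTSC, all abundant, it was between 1.504% and 1.63%. In each of the genes over 10%, at least 1 transcript carries the mark for too few alignments, and in GAA and MAN2B1 all do. The same median over all genes was not computed.

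**Figure D3:**
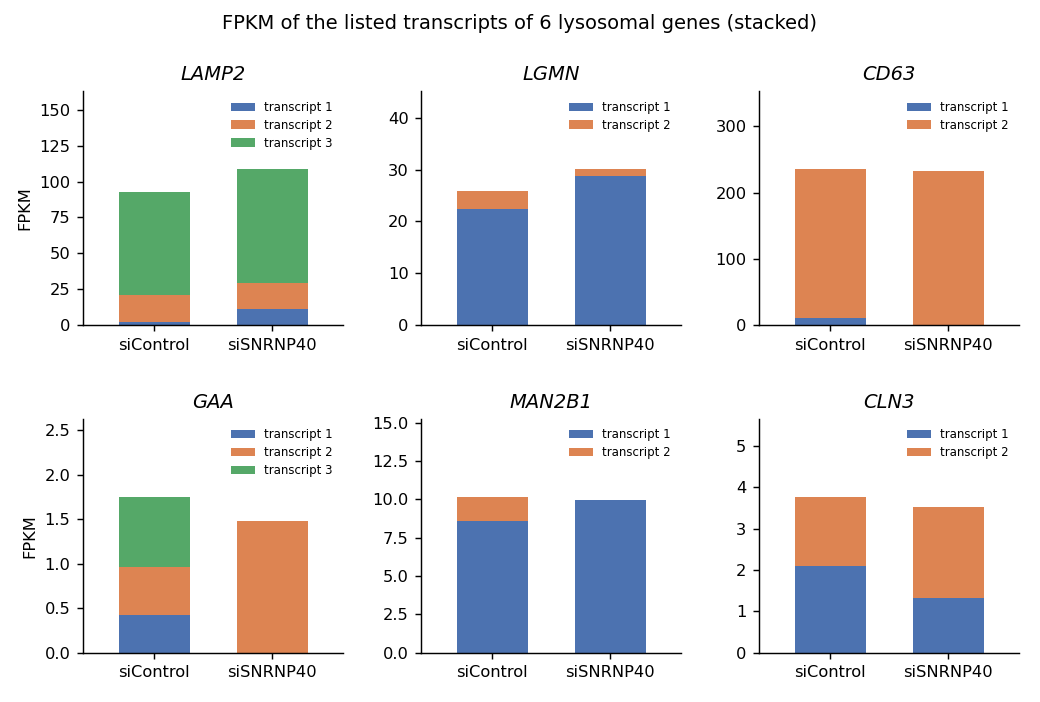
FPKM (vertical axis) of each listed transcript, stacked to the sum of the gene, with siControl and siSNRNP40 for 6 genes, from 1 pooled value per condition and without error bars. Transcript 1 of LAMP2 grows from 2.33 to 11.4 while the total changes little, the minor transcripts of LGMN, CD63 and MAN2B1 shrink, and GAA goes from 3 transcripts to 1.

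The assembled loci matter for some of these values. CTSD lies on chromosome 11 from 1773982 to 1785803, a gene of 11822 bases, but the authors' assembly placed it in a locus of 294817 bases that spans 10 other annotated coding genes. For CTSA the assembled locus was 2.70 times the length of the gene and took in PLTP on the opposite strand, which had an FPKM of 5.17 and 6.24. GLA shares its position with RPL36A, a ribosomal protein gene on the opposite strand at 960.5 and 983.6. In all, 11 of the 33 genes overlap another annotated coding gene. Whether strand was used in assigning fragments is not given in the sources used here.

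Beyond the 33 genes, 76 other genes of the lysosome were examined, of which 72 were above the minimum. Of these, 9 passed 0.5 in either direction (12.5% against 10.3% of all genes), 3 higher and 6 lower, and their median log2 ratio was 0.011. Only LIPA passed 1. LIPA, the acid lipase that frees cholesterol from its esters, had an FPKM of 24.9 with siControl and 6.09 with siSNRNP40 (-2.03), while the 31 genes described here reached no further than -0.38 on the lower side.

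Of the 27 other soluble hydrolases and cofactors, 26 were above the minimum, with 1 above 0.5 and 4 below -0.5. Together 19.2% of them passed 0.5 in either direction, against 10.3% of all genes. PSAP, the precursor of the saposins and the most abundant of them, had an FPKM of 219.7 and 284.0 (0.37). CTSL2, a close relative of CTSL1, had 2.42 and 1.25 (-0.95), the opposite side from CTSL1. GM2A, the activator that presents ganglioside to HEXA, had 15.6 and 10.8 (-0.53). GALNS, a sulfatase of keratan sulfate, had 3.57 and 2.48 (-0.52).

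The proton pump that acidifies the lysosome had 16 genes above the minimum, 8 on each side of 0. Of these, 3 passed 0.5 in either direction (18.8% against 10.3% of all genes). ATP6V1F (93.6 and 134.2, log2 ratio 0.52) was above 0.5, and ATP6V1A (30.9 and 21.3, -0.54) and ATP6V1C1 (24.0 and 15.4, -0.63) were below -0.5, although all 3 encode subunits of the same cytosolic sector. ATP6V0E1 was the most abundant with 259.7 and 305.1. None of the 12 other membrane proteins, 6 sorting genes and 9 regulators above the minimum passed 0.5. The most abundant of each were LAPTM4A (74.9 and 79.2), the mannose 6-phosphate receptor gene M6PR (53.1 and 74.6, 0.49) and FNIP1 (37.7 and 39.7). Among inhibitors of cathepsins, CST3, the secreted cystatin C, had 111.4 and 90.4 (-0.30), CSTB had 30.2 and 35.2 (0.22) and CST6 had 2.19 and 3.43 (0.65).

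**Figure D4:**
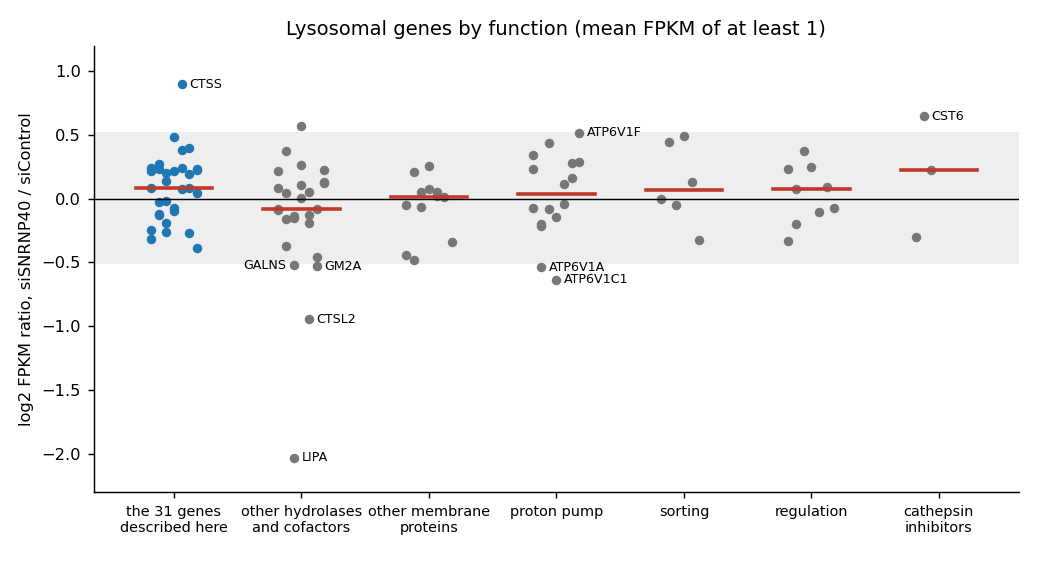
Log2 ratio of FPKM (siSNRNP40 over siControl, vertical axis) of the 31 genes described here (blue) and of 72 other lysosomal genes by function (grey), each point a gene with a mean FPKM of 1 or more and each red line a median. The grey band is the 5th to 95th percentile of all genes, most genes past 0.5 are named, and LIPA at -2.03 lies far below the rest.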

How the data were processed

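RNA-sequencing libraries (4, with 2 per condition) were analysed from the authors' table. Per the labels and the study's methods, cutadapt 1.2.1 removed linkers and poor bases, TopHat 2.0.8 aligned the rest to hg19, and the authors then ran Cufflinks, cuffmerge and cuffdiff 2.0.2. FPKM was deposited per transcript, as estimated by cuffdiff, and the authors pooled both libraries of a condition into 1 value. Depth is unknown, and intervals could not be given. The authors' fold changes, p-values and q-values in the same table were not used.

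FPKM was summed per gene symbol and compared as log2(siSNRNP40/siControl) without a pseudocount, for genes with a mean FPKM of 1 or more and both values above 0. No test was run, since each condition has 1 value. Limits of 1, after the study, and 0.5 were used, beside the share of all genes past them. Alternatives changed the pseudocount (1 or 0.1), filter, scaling, gene value and list.

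All 33 genes are reported. Of the 76 other lysosomal genes, those past 0.5 and the most abundant of each group are named, some single-gene values are not reported here, and NEU1, MITF, CSTB, markers and copied or overlapping genes were named after their values were seen. The genes and lists were chosen with earlier results of these data known. Gene positions came from GENCODE release 44 on GRCh37 and promoters from RefSeq on GRCh38.p14, and 33 genes overlapped their assembled loci. The gene sums and the limit of 1 were checked on simulated data, with planted changes larger than those of the 33 genes. That check did not cover the limit of 0.5, the transcript shares or the promoter search. Python 3.11.15, numpy 2.4.6, pandas 2.3.3 and matplotlib 3.10.9 were used.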

Additional observations from a re-analysis of the deposited data

How the results depend on the processing

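No paired analysis was possible because both libraries of a condition are merged into 1 column with no replicate number, and leaving out a replicate could not be run for the same reason. The number of the lysosomal genes past 0.5, which was 1, became 2 with upper-quartile scaling, where MCOLN1 joined CTSS, and 2 with the most expressed transcript in place of the sum, where GAA joined it. The number past 1 went from 0 to 1 with the most expressed transcript, again GAA. The most expressed transcript was picked by its level over both conditions, so one that is high with siSNRNP40 can select itself. The median of the lysosomal genes, 0.081, was higher with the most expressed transcript (0.172) and for hydrolases alone (0.167), and lay between 0.078 and 0.112 in the other alternatives, which include, chosen after the data were seen, the list without the 11 genes that overlap another coding gene. Of 165 values of single genes under 5 alternatives, 154 stayed within 0.1 and 11 moved by more. Much of this was fixed in advance, because each scaling changes every log2 ratio by the same constant, smaller than 0.1. For the 17 genes with 1 listed transcript, the most expressed transcript is also the sum itself. The count is therefore no measure of how stable the values are. CD63, CLN3, GAA and MAN2B1, all close to 0 or with several transcripts, crossed 0 in at least 1 alternative. The number of their transcripts past 1, which was 3, was 5 when the FPKM minimum was 0.1 and 1 when it was 5. Of the other lysosomal genes, 9 passed 0.5, against 5 with a pseudocount of 1, 15 with the most expressed transcript and 5 with an FPKM minimum of 5, and 4 in place of 1 passed 1 with the most expressed transcript. SNRNP40 had -2.54 with a pseudocount of 1. Fewer genes tested account for the counts at a higher FPKM minimum, and for the rest the cause was not tested. The scalings subtract a constant from every log2 ratio, which is 0.0034 for the median of all genes and -0.031 for upper quartiles. Centring on the median thus lowers every ratio, and upper-quartile scaling raises every ratio. Pooled values and the unknown depth limit every difference given here.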
